A study of Mus musculus with 68 samples.

Results

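The hypertrophic zone of the growth plate was compared with the proliferative zone in mice at postnatal day 2 (P2). The comparison was chosen by the labels alone: ethanol-fixed libraries labelled P2 and either hypertrophic or proliferative. Of the 68 libraries of the series 16 carried these labels, 8 per zone, and the 8 that held at least 100000 counts entered the test. These were 4 hypertrophic and 4 proliferative libraries from 5 animals, called A, D, G, E and C here: A, D and G gave both zones, E the proliferative zone only and C the hypertrophic zone only. The wider study captured resting, proliferative and hypertrophic cells of growth plate cartilage at P2, P3 and P28 by laser from stained frozen sections 10 microns thick. All mice were of mixed background, and the labels name no allele, treatment or sex for them. The label of animal D speaks of animals in the plural, so that its libraries may come from a pool. Libraries came from SMART-seq2, which copies whole polyadenylated transcripts from very few cells, without an RNA extraction step.

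Growth plate chondrocytes divide in columns in the proliferative zone, then leave the cell cycle, swell and become hypertrophic before bone replaces them. Indian hedgehog (IHH), released by cells that enter hypertrophy, and parathyroid hormone-related protein (PTHrP), made nearer the joint surface, form a loop that sets how long cells keep dividing. Hypertrophic cells lay down type X collagen and the phosphatase that allows mineral to form.

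Levels are given as TMM-normalised CPM (counts divided by the effective library size and times 1e+06), in the order A, D, G, E for proliferative and A, D, G, C for hypertrophic libraries. The effective size is the library size over the genes tested times a TMM factor. That factor was 0.361, 1.10, 0.832 and 0.278 in hypertrophic and 1.10, 1.98, 1.46 and 1.27 in proliferative libraries. A log2 change is hypertrophic minus proliferative within animals, with its standard error, from edgeR's quasi-likelihood test with Benjamini-Hochberg adjustment. Depth was uneven: the libraries that entered held 122788 to 2583378 counts, and counts outside the ribosomal symbols Rn45s and Lars2 and the symbol Glra2 were 15.0%, 51.7%, 58.2% and 7.92% of the hypertrophic and 36.5%, 83.4%, 77.6% and 46.7% of the proliferative libraries. Hypertrophic libraries held 3372 to 8967 detected genes and proliferative ones 4022 to 11212. By effective size a single count was worth 9.49, 2.46, 0.478 and 14.4 CPM in the hypertrophic and 6.84, 1.04, 0.307 and 6.78 CPM in the proliferative libraries, so that a 0 in animals A, C and E says little. The zone labels were checked against markers: the summed level of 24 hypertrophic markers was 1423 to 3322 CPM in proliferative and 10195 to 77065 CPM in hypertrophic libraries. The summed level of 38 mitosis genes was 244 to 2860.4 CPM and 98.4 to 484 CPM in the same order. The hypertrophic marker sums did not overlap between the zones, while the lowest proliferative mitosis sum lay below the highest hypertrophic one. In bulk captures such as these, fewer cells of a type and less RNA per cell cannot be told apart.

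Of 23420 gene symbols 6958 passed the filter on low counts and were tested. In the hypertrophic zone 79 genes (1.14% of those tested) rose and 82 (1.18%) fell at an adjusted p under 0.05, 161 (2.31%) in all. The genes that rose included those for type X collagen, Indian hedgehog, the PTHrP receptor, mineral-forming enzymes, a retinoic acid enzyme and the Wnt inhibitors Frzb and Wif1. Those that fell included 12 mitosis genes, the small proteoglycans Prelp and Fmod, imprinted growth genes, and Ucma and Scrg1. The last 2 are on the list of resting and early chondrocyte markers, of which Wif1 and Cd200 rose. Over all genes tested the median log2 change was -0.36. The levels in the 4 libraries of 1 zone lay wholly above those of the other for 43 of the 79 and 47 of the 82, against 5.45% of all genes tested. All 3 animals with both zones gave the called direction for 75 of the 79 (12.2% of all genes were higher in all 3) and 81 of the 82 (17.8% were lower in all 3). The genes were called on these same libraries, so their excess over all genes follows in part from the selection. Of the 82 genes 40 had 0 counts in every hypertrophic library, and of the 79 genes 10 had 0 counts in every proliferative library. Zeros were uneven over all genes too: 367 of the 6958 were at 0 in every hypertrophic and 67 in every proliferative library. For such genes the text gives a lower bound against a floor of 3 counts over the zone, and for genes with 1 to 3 counts a ratio of pooled counts with its exact 95% interval, which covers counting error only. Bounds and ratios pool the 4 libraries of a zone without pairing by animal. Animal G weighs most in them, with effective sizes of 3.26e+06 in the proliferative and 2.09e+06 in the hypertrophic zone. Animal D, the next largest, had 963730 and 405904. The calls leaned on the 3 animals with both zones: 42 rose and 33 fell without animal A, 23 and 9 without D, and 18 and 10 without G. Animals A, C, D and E carry coded labels of 1 deposited set and G those of another, both zones of each animal lie in the same set, and the values without G are therefore those of the first set at P2. The counts also moved with the P28 animals that share the dispersion estimate, to 58 and 48 without P28 animal B and 124 and 185 without P28 animal D. No gene called in the full fit had the other sign in any fit that left out 1 animal, and 14 of the 79 and 7 of the 82 passed in all 9 such fits. With animal as a block the zone change rests on A, D and G, so the fits without C, E or F could move only scaling, filtering and dispersion.

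**Figure D1:**
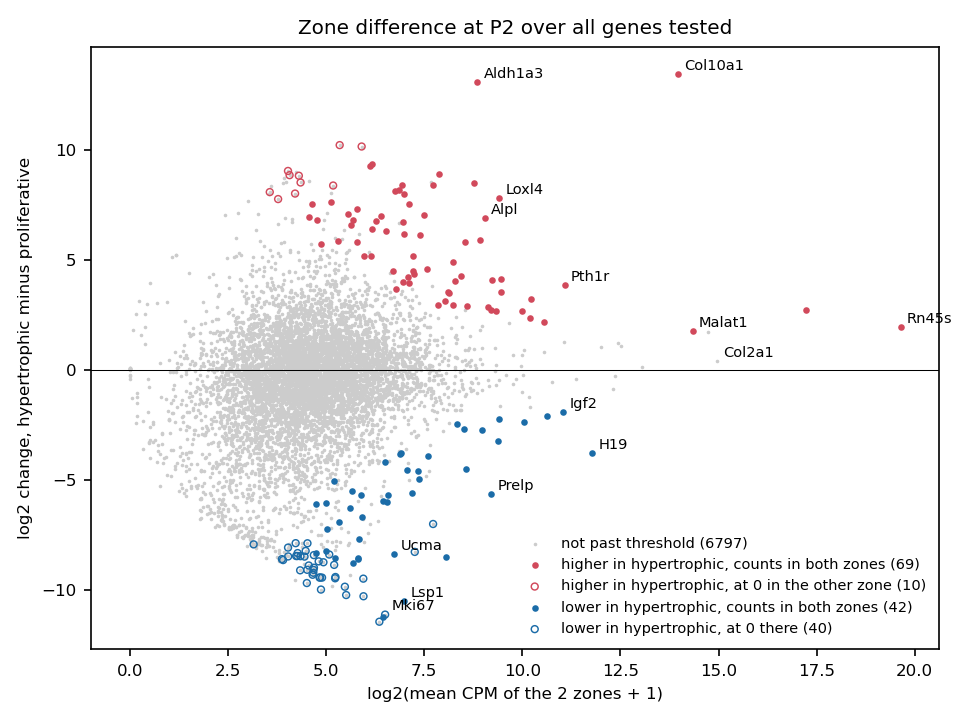
Log2 change between the zones at P2 (vertical, hypertrophic minus proliferative) against log2 of the mean CPM of the zones plus 1 (horizontal) for the 6958 genes tested. Filled coloured points are called genes with counts in both zones, open coloured ones called genes at 0 counts in 1 zone, whose plotted change depends on the prior count of the fit, and grey points the rest. Filled genes at 0 counts in 1 zone of A, D and G, such as Aldh1a3 and Lsp1, have a change that depends on the prior count too. The 40 open blue points form the lower left band, while Col10a1 and Aldh1a3 stand at the top.

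Markers of hypertrophic chondrocytes were led by Col10a1, which encodes type X collagen, Alpl, Loxl4 and Ibsp. Of 24 markers listed, 17 were tested, 8 rose and 1, Runx3, fell, and the median log2 change of those tested was 2.94. The gene Col10a1 lies on chromosome 10, 34389981 to 34397085 (RefSeq, GRCm38.p6). Col10a1 had 0, 7.26, 3.07 and 20.3 CPM in proliferative and 26051, 36287, 60572 and 5826 CPM in hypertrophic libraries. Even the lowest hypertrophic library, that of animal C, lay far above every proliferative one. The log2 change was 13.41 ± 2.69 with an adjusted p of 0.0464. Its large standard error put it close to the threshold, and it passed in 4 of the 9 fits that left out 1 animal, with an adjusted p of up to 0.478 without animal A, C, D, G or P28 animal D. Alpl, the tissue-nonspecific alkaline phosphatase that releases phosphate for mineral, had 0, 13.5, 22.1 and 0 CPM and 1091, 1377, 1629.6 and 72.1 CPM. Animal C gave the lowest hypertrophic value, still above all proliferative ones, and the log2 change was 6.89 ± 0.90 (adjusted p = 3.16e-11). Loxl4, a lysyl oxidase-like enzyme that crosslinks collagen, had 0, 16.6, 10.4 and 6.78 CPM against 958, 1685, 2662 and 86.5 CPM and a log2 change of 7.81 ± 0.94 (adjusted p = 4.08e-13). Both genes passed in all 9 fits with 1 animal left out.

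Bone sialoprotein, encoded by Ibsp, is a matrix protein on which mineral nucleates. Its gene had 0, 1.04, 0.307 and 0 CPM in proliferative and 1063, 281, 210.2 and 317 CPM in hypertrophic libraries, a pooled ratio of 581 (160.1 to 4804) (adjusted p = 5.27e-05, and 0.122 without P28 animal D). Sgms2, a sphingomyelin synthase tied to mineralisation, had 0, 153, 9.52 and 1234 CPM and 19, 379, 974 and 14.4 CPM. Its groups overlapped, since the proliferative library of animal E was the highest of all 8 and the hypertrophic one of animal C among the lowest. Within animals A, D and G it rose, by 4.25 ± 1.01 (adjusted p = 0.00351, and 0.755 without animal G). Mef2c, a transcription factor that drives hypertrophy, was even within zones, with 164, 142, 161 and 129 CPM against 787, 1086, 1211 and 1038 CPM and a log2 change of 2.70 ± 0.74 (adjusted p = 0.0198). The adjusted p was up to 0.434 without animal A, D or G. Phex, an endopeptidase that acts on phosphate balance and mineral, rose by 7.29 ± 1.48 (adjusted p = 2.10e-04, and up to 0.458 without animal D or G) although its proliferative library of animal A, at 171 CPM, was the highest of all 8. The mineralisation list as a whole had 12 of 17 members tested, of which 3 (Alpl, Ibsp and Phex) rose and 0 fell, with a median of 1.04. Not past the threshold were osteopontin, encoded by Spp1, at 8.54 ± 3.67 with 493, 148, 918 and 28.8 CPM in hypertrophic libraries (adjusted p = 0.347), Vegfa, the angiogenic factor, at 2.29 ± 1.25, and Runx2, the transcription factor upstream of many of these genes, at 0.99 ± 0.90. Mmp13, the collagenase of terminal hypertrophic cartilage, did not pass the filter on low counts and was at 0 in the proliferative libraries. The hypertrophic list counted 6 rising members without animal A, 7 without C, 6 without D and 4 without G.

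**Figure D2:**
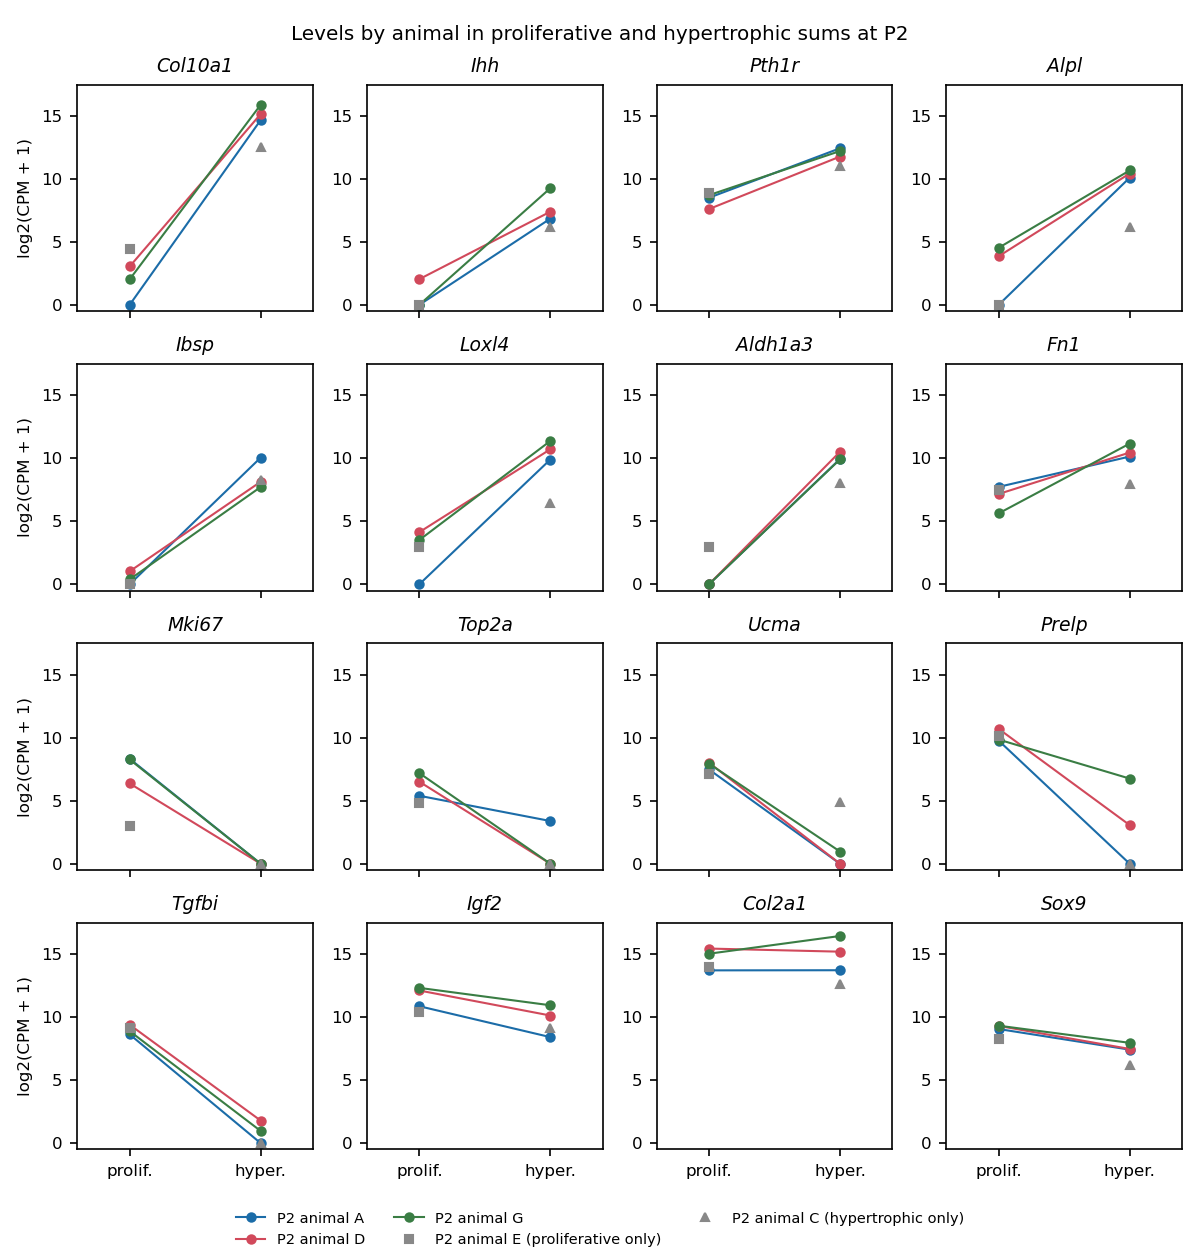
Levels of 16 genes, log2 of CPM plus 1 (vertical), in the proliferative and hypertrophic libraries of P2 (horizontal). Lines join both zones of animals A, D and G, the square is the proliferative library of animal E and the triangle the hypertrophic library of animal C. Col10a1, Alpl and Loxl4 climb in every animal, Mki67, Prelp and Tgfbi drop in every animal, and the lines of Col2a1 run flat or in both directions.

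Among the signals between zones, the ligand and a receptor of the IHH and PTHrP loop rose together and hedgehog response genes fell. The gene Ihh lies on chromosome 1, 74945315 to 74951672 (RefSeq, GRCm38.p6). Ihh had 0, 3.11, 0 and 0 CPM in proliferative and 114, 168, 613 and 72.1 CPM in hypertrophic libraries. No proliferative library reached the lowest hypertrophic one, and 3 proliferative libraries held no count. The pooled ratio was 769.6 (263 to 3737) (adjusted p = 2.10e-04, and 0.259 without animal G). The gene Pth1r lies on chromosome 9, 110722085 to 110747145 (RefSeq, GRCm38.p6). Pth1r, the receptor for PTHrP, was well measured in both zones, with 362, 194, 418 and 475 CPM against 5531, 3501, 4752 and 2105 CPM. It rose by 3.85 ± 0.60 (adjusted p = 1.18e-07) and passed in all 9 fits with 1 animal left out. Gli1, a transcription factor that hedgehog signalling induces, had 13.7, 35.3, 71.9 and 366 CPM in proliferative libraries and 0 counts in the hypertrophic ones, at least 64-fold lower (adjusted p = 0.0319). Hhip, a membrane protein that binds and restrains hedgehog ligands and is itself a target of the pathway, had 6.84, 5.19, 51.3 and 0 CPM and was at least 34.2-fold lower (adjusted p = 0.00728). The adjusted p was up to 0.635 without animal A, D, E, G or P28 animal B for Gli1 and up to 0.743 without animal D or G for Hhip. Of the 18 pathway genes listed 15 were tested, 2 rose, 2 fell, and the median log2 change was -1.96. The receptor genes Ptch1 (-1.96) and Smo (-0.78) did not pass. Pthlh, the gene for PTHrP itself, had 0 counts in both zones.

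Of the BMP and TGF-beta pathway, 31 of 48 genes were tested. The ligand genes Bmp2, Bmp8a and Tgfb3 rose and Fstl1, a secreted follistatin-like protein, fell. Bmp2 had 20.5, 0, 0.307 and 0 CPM against 47.4, 170.0, 39.7 and 115 CPM, so that the groups did not overlap, and rose by 6.60 ± 1.95 (adjusted p = 0.0367). Tgfb3 had 0, 6.23, 0 and 0 CPM against 94.9, 145, 62.1 and 0 CPM, with the hypertrophic library of animal C at 0, and rose by 5.85 ± 1.71 (adjusted p = 0.0328). Bmp8a had 0 proliferative counts and 94.9, 170.0, 17.7 and 0 CPM in hypertrophic libraries, at least 65.3-fold higher (adjusted p = 6.57e-04). The adjusted p of Bmp2 was up to 0.581 without animal A, D, G, P28 animal A or P28 animal B, that of Tgfb3 up to 0.568 without animal A, D, G or P28 animal B and that of Bmp8a 0.135 without animal D. Fstl1 had 75.2, 170.2, 125 and 20.3 CPM and 0, 7.39, 1.43 and 0 CPM, a log2 change of -5.48 ± 1.36 (adjusted p = 0.00613, and up to 0.445 without animal A, D or G). The median over the tested members of this pathway was -0.57.

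Wnt pathway genes were called in both directions. Frzb and Wif1, secreted proteins that bind Wnt ligands, and Tcf7l2, a transcription factor of the pathway, rose, while Rspo3, a secreted Wnt enhancer, and Ror2, a receptor for Wnt5a, fell. Frzb had 6.84, 18.7, 0 and 0 CPM and 958, 1207, 1149 and 144 CPM. The smallest hypertrophic value, in animal C, was still above the largest proliferative one, and the log2 change of 8.50 ± 1.53 (adjusted p = 5.89e-04) passed in all 9 fits with 1 animal left out. Wif1 had 0, 0, 0.307 and 0 CPM and 56.9, 286, 226 and 0 CPM, a pooled ratio of 1004 (179.6 to 39732) (adjusted p = 8.96e-04, and up to 0.165 without animal D or G). Tcf7l2 rose by 2.84 ± 0.79 from 376, 52.9, 105 and 13.6 CPM to 1859, 916, 517 and 606 CPM (adjusted p = 0.0215, and up to 0.384 without animal A, D or G). Rspo3 had 61.6, 49.8, 72.5 and 13.6 CPM and Ror2 68.4, 22.8, 63 and 0 CPM in proliferative libraries, and neither had a count in the hypertrophic ones. They were at least 58.3-fold and 46.8-fold lower (adjusted p = 0.00573 and 0.0406). Left out in turn, animals moved the adjusted p of Rspo3 to up to 0.402 without animal D or G and that of Ror2 to up to 0.581 without animal A, D, G, P28 animal A or P28 animal B. Of 45 listed genes 23 were tested, with a median of -1.38.

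Growth factor receptors and the retinoic acid pathway each held few tested members. Fgfr1, a fibroblast growth factor receptor of hypertrophic cartilage, rose by 4.60 ± 1.0 from 13.7, 27, 11.7 and 0 CPM to 237, 544, 474 and 216 CPM, without overlap (adjusted p = 7.86e-04, and up to 0.15 without animal D or G). Npr3, the clearance receptor for natriuretic peptides, rose by 6.99 ± 1.81 within animals (adjusted p = 0.0103, and up to 0.445 without animal A, D or G). Its groups overlapped, with 27.4, 1.04, 0 and 122 CPM and 209, 241, 42.5 and 28.8 CPM, since the proliferative library of animal E lay above 2 of the hypertrophic ones. These were 2 of the 9 members tested of 22 listed in the FGF and natriuretic peptide pathway. The gene Aldh1a3 lies on chromosome 7, 66390892 to 66427477 (RefSeq, GRCm38.p6). Aldh1a3, which makes retinoic acid from retinal, had the smallest adjusted p of all genes, 1.69e-17. It had 0, 0, 0 and 6.78 CPM in proliferative libraries, from 1 count in all, and 987, 1468, 966 and 259.6 CPM in hypertrophic ones. The pooled ratio was 4625 (829 to 182728), and the call stood in all 9 fits with 1 animal left out. It was the 1 member that rose among 8 tested of the 19 in the retinoic acid list, and 0 fell.

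Imprinted genes and the insulin-like growth factor axis fell in part. Of 26 genes listed 21 were tested, 1 rose, 4 fell and the median was -1.56. H19, an imprinted non-coding RNA of fetal and newborn tissues, had 7181, 7581, 6449 and 4922 CPM and 275, 542, 870.5 and 274 CPM, with no overlap. It fell by 3.79 ± 0.57 on the log2 scale (adjusted p = 2.26e-08) and passed in all 9 fits with 1 animal left out. Igf2, the neighbouring growth factor gene, had 1874, 4456, 5147 and 1329 CPM and 342, 1123, 1976 and 562 CPM. The groups overlapped because animals differed in level, while each of A, D and G was lower in the hypertrophic zone, a log2 change of -1.92 ± 0.55 (adjusted p = 0.0308, and up to 0.371 without animal A, D, G or P28 animal B). Plagl1, an imprinted zinc finger gene, showed the same form, with 739, 2131, 5508 and 2034 CPM against 161, 436, 1514 and 144 CPM and a change of -2.11 ± 0.57 (adjusted p = 0.0168, and up to 0.351 without animal A, D, G or P28 animal B). Meg3, an imprinted non-coding RNA of another cluster, had 1252, 200.3, 616 and 488 CPM and 9.49, 113, 132 and 86.5 CPM and changed by -2.68 ± 0.67 (adjusted p = 0.00687, and up to 0.484 without animal A or G). The member that rose was Cdkn1c, which encodes the cell cycle inhibitor p57. It had 219, 479, 215 and 271 CPM and 787, 4021, 1804 and 404 CPM and rose by 2.68 ± 0.67 (adjusted p = 0.00726, and up to 0.313 without animal D or G). Only the hypertrophic library of animal C lay within the proliferative range for Cdkn1c.

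Transcription factors beyond Mef2c included 2 that rose and 2 that fell. Irx5, an Iroquois homeobox factor, had 0 proliferative counts and 47.4, 325, 99.8 and 0 CPM in hypertrophic libraries, at least 195-fold higher (adjusted p = 2.10e-04, and up to 0.116 without animal D or G). Sox4, a SOXC factor, had 0, 1.04, 2.46 and 0 CPM against 256, 118, 113 and 245 CPM and rose by 6.31 ± 1.47 (adjusted p = 0.00271, and up to 0.135 without animal A, D or G). Runx3, a Runx family member that acts with Runx2 in cartilage, went the other way. It had 68.4, 204, 147 and 515 CPM against 0, 7.39, 19.1 and 0 CPM and changed by -3.80 ± 1.13 (adjusted p = 0.0388, and up to 0.405 without animal A, D, E, G, P28 animal A or P28 animal B). Hoxa11, a limb patterning gene with an overlapping antisense transcript that these reads may include, had 129.9, 2.08, 44.5 and 0 CPM and 0 hypertrophic counts, at least 32.8-fold lower (adjusted p = 0.0423, and up to 0.648 without animal A, D, G, P28 animal A or P28 animal B). Sox9, the master factor of chondrocytes, had 533, 633, 641 and 312 CPM and 171, 177, 249 and 72.1 CPM. Its groups did not overlap, yet the log2 change of -1.59 ± 0.73 did not pass (adjusted p = 0.279). Its partners Sox5 (-3.08) and Sox6 (-2.51) did not pass either. In all 28 of 42 factors were tested, with a median of 0.32.

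**Figure D3:**
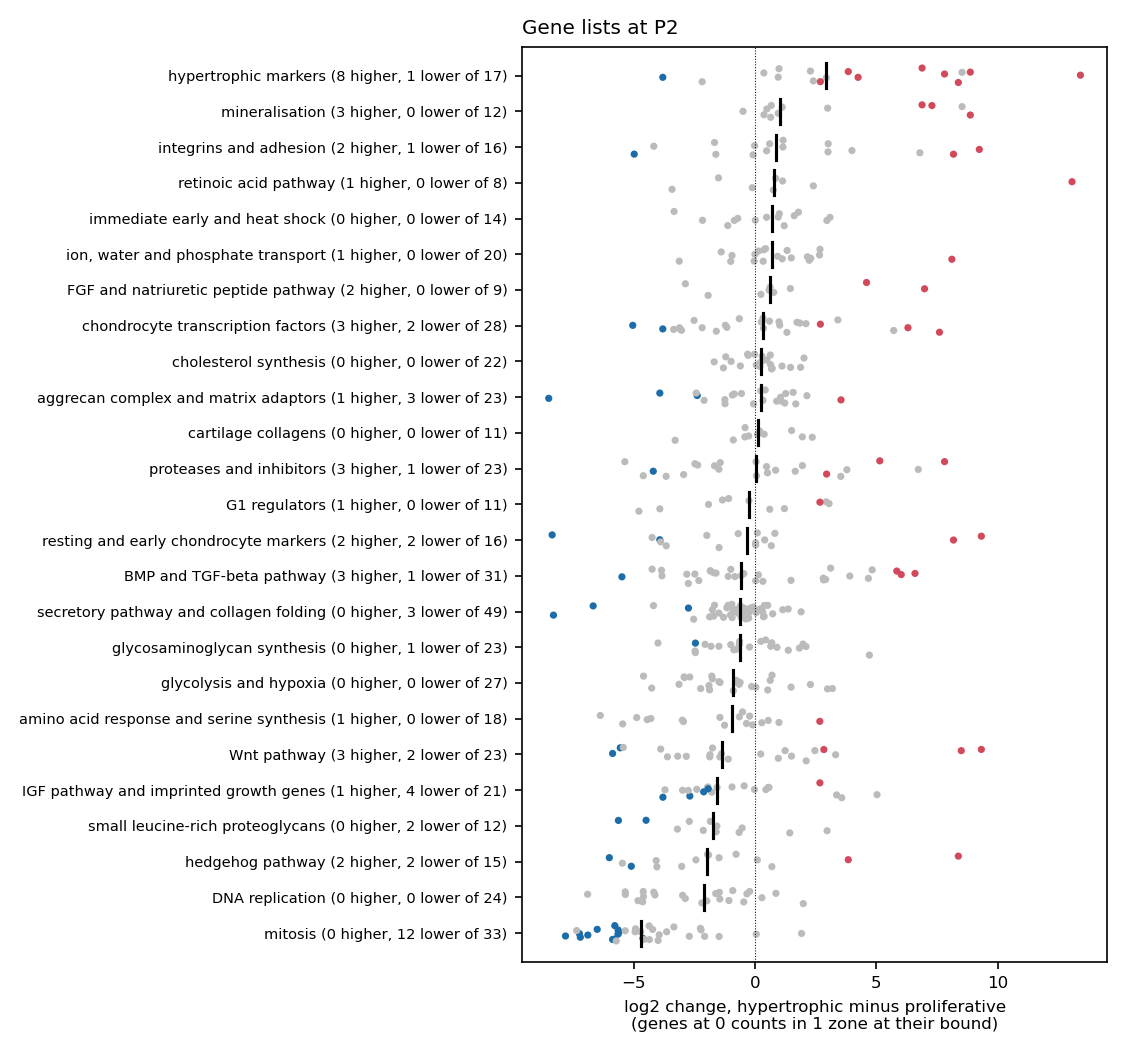
Log2 change between the zones at P2 (horizontal) for every tested member of the gene lists shown (rows, ordered by median), with genes at 0 counts in 1 zone drawn at their bound. Red points rose, blue points fell, grey points did not pass, and black bars are medians. Mitosis lies lowest, with a median of -4.70 at the bounds, and the hypertrophic markers highest, at 2.94.

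Among matrix genes no cartilage collagen was called, and 2 small proteoglycans fell. None of the 11 cartilage collagens passed in edgeR, which says little against 2.31% of all genes. At an unadjusted p under 0.05 edgeR had 4 of them, 2 on each side, DESeq2 called 1, and the median was 0.11. Col2a1, the main collagen of cartilage, had 13501, 44837, 33760.3 and 16686 CPM and 13595, 37782, 89555 and 6460.1 CPM, with wide overlap and a log2 change of 0.38 ± 0.36 (adjusted p = 0.733). Acan, the core protein of aggrecan, had 1375, 4934, 8042 and 2434 CPM and 3833, 8293, 16487 and 1125 CPM and a change of 1.07 ± 0.45 (adjusted p = 0.222). Among the small leucine-rich proteoglycans, which bind collagen fibrils, 12 of 14 were tested and Prelp and Fmod fell. Prelp had 875, 1671, 927 and 1132 CPM against 0, 7.39, 107 and 0 CPM, and every hypertrophic library lay below every proliferative one. It changed by -5.63 ± 0.76 (adjusted p = 2.34e-10). Fibromodulin, encoded by Fmod, had 198, 1027, 1143 and 515 CPM and 0, 27.1, 125 and 0 CPM and changed by -4.49 ± 0.71 (adjusted p = 1.75e-07). Both passed in all 9 fits with 1 animal left out, and the median over the family was -1.72.

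Adaptor proteins of the matrix moved apart from one another. Fn1, fibronectin, rose by 3.55 ± 0.67 from 212, 143, 48.5 and 183 CPM to 1129, 1407, 2302 and 245 CPM (adjusted p = 3.38e-05, and 0.112 without animal G). The gene Tgfbi lies on chromosome 13, 56609586 to 56639359 (RefSeq, GRCm38.p6). Tgfbi, a TGF-beta-induced matrix protein that binds integrins, had 397, 676, 475 and 556 CPM in proliferative libraries and 0, 2.46, 0.955 and 0 CPM in hypertrophic ones, from 3 counts in all. The proliferative level was even over the 4 animals, and the pooled ratio was 0.00217 (4.47e-04 to 0.00634) (adjusted p = 1.70e-08). Lect1, the symbol used for chondromodulin, an inhibitor of vessel growth in cartilage, had 308, 3253, 2094 and 1281 CPM and 19, 441, 949 and 28.8 CPM and changed by -2.38 ± 0.58 (adjusted p = 0.00484, and up to 0.317 without animal A or D). Scrg1, a small secreted protein of chondrocytes, changed by -3.92 ± 0.90 (adjusted p = 0.00192, and up to 0.232 without animal A or D). These were 1 rising and 3 falling members among 23 tested, with a median of 0.24. Of 23 proteases and inhibitors tested, Loxl4, Timp3 and Adamts1 rose and Mmp2 fell. Timp3, a metalloproteinase inhibitor, rose by 2.95 ± 0.82 (adjusted p = 0.0224, and up to 0.314 without animal A, D, G or P28 animal B). Adamts1, a protease of aggrecan and versican, rose by 5.15 ± 1.5 (adjusted p = 0.0334, and up to 0.459 without animal A, D, G, P28 animal A or P28 animal B), each with the hypertrophic library of animal C inside the proliferative range. Mmp2, gelatinase A, had 109, 248, 163 and 163 CPM and 9.49, 12.3, 8.12 and 0 CPM and changed by -4.19 ± 1.12 (adjusted p = 0.0148, and up to 0.431 without animal A, D or G). Chst11, a chondroitin sulphotransferase, was the 1 called gene of 23 in glycosaminoglycan synthesis, at -2.45 ± 0.73 (adjusted p = 0.0409, and up to 0.418 without animal A, C, D, G, P28 animal A or P28 animal B). On the adhesion list Itga7, an integrin subunit that binds laminin, had 6.84, 0, 0 and 0 CPM and 152, 189.7, 172 and 28.8 CPM, a pooled ratio of 769.6 (137 to 30465) (adjusted p = 0.00109, and up to 0.291 without animal D or G). Ncam1, a neural cell adhesion molecule also found in early cartilage, changed by -4.97 ± 1.15 (adjusted p = 0.00239, and up to 0.445 without animal D or G).

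Markers of resting and early chondrocytes moved both ways, so the list does not describe a direction: of 18 listed 16 were tested, 2 rose, 2 fell and the median was -0.33. Ucma, a secreted protein of upper zone chondrocytes, had 178, 258, 245 and 136 CPM in proliferative and 0, 0, 0.955 and 28.8 CPM in hypertrophic libraries. It had 2 counts in animal G and 2 in animal C, and the log2 change of -8.36 ± 1.13 (adjusted p = 2.34e-10) passed in all 9 fits with 1 animal left out. Scrg1 was the other that fell. Cd200, a surface protein that restrains immune cells, had 0, 15.6, 0 and 0 CPM against 56.9, 269, 518 and 57.7 CPM and rose by 8.18 ± 1.72 (adjusted p = 4.25e-04, and 0.459 without animal G), and Wif1, given above, rose too.

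Genes of mitosis fell, and those of DNA replication, given further below, were mostly lower with 0 calls. Of 38 mitosis genes listed 33 were tested, 12 fell and 0 rose. Over all 38, counts were found for 38 in the proliferative and for 20 in the hypertrophic libraries. The median log2 change of those tested was -6.78, or -4.70 with genes at 0 placed at their bound, against -0.36 and -0.35 over all genes. The gene Mki67 lies on chromosome 7, 135689784 to 135716450 (RefSeq, GRCm38.p6). Mki67, the antigen Ki-67 that coats chromosomes of dividing cells, had 321, 82, 309 and 6.78 CPM in proliferative libraries and 0 counts in the hypertrophic ones. It was at least 224-fold lower (adjusted p = 3.89e-06) and passed in all 9 fits with 1 animal left out. Top2a, the topoisomerase that untangles replicated DNA, had 41, 90.3, 145 and 27.1 CPM against 9.49, 0, 0 and 0 CPM. The single hypertrophic count came from animal A, and the pooled ratio was 0.00296 (7.48e-05 to 0.0166) (adjusted p = 0.00766, and up to 0.581 without animal D or G). Aspm, a spindle pole protein, had 95.8, 42.5, 211 and 0 CPM and Cenpf, a kinetochore protein, 95.8, 43.6, 59.3 and 0 CPM, both with 0 hypertrophic counts, at least 147-fold and 49.2-fold lower (adjusted p = 0.00184 and 0.0115). Their adjusted p was up to 0.428 without animal D or G for Aspm and up to 0.445 without animal A, D or G for Cenpf. The proliferative library of animal E held no count of either. The other called members were the kinase Cdk1 and its partner Ccna2, the spindle genes Kif23, Knstrn, Hmmr, Ckap2l and Prc1, and Birc5, which encodes survivin. Of these 7 had 0 hypertrophic counts and were at least 24.5- to 90.5-fold lower, and Prc1 had a pooled ratio of 0.00601 (1.52e-04 to 0.0337). Of the mitosis genes 4 fell without animal A, 1 without D and 1 without G, the animals with both zones.

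The promoters of 4 of these genes are shown because the mitosis genes moved together. They are the called mitosis genes of smallest p with CCAAT in the region and at most 30 bases of it inside the longest RefSeq gene model (0 to 21 here). Each run is the 250 bases before the start that the RefSeq table gives, on the gene's strand, for GRCm38.p6. Capitals mark CCAAT, the letters bound by the factor NF-Y, and TTTGAA, the core of the cell cycle homology region, read on either strand. The regions are chr11:99024190-99024439 (minus strand) for Top2a, chr1:189688087-189688336 (minus strand) for Cenpf, chr10:69352913-69353162 (minus strand) for Cdk1 and chr7:80294201-80294450 (plus strand) for Prc1.
Top2a: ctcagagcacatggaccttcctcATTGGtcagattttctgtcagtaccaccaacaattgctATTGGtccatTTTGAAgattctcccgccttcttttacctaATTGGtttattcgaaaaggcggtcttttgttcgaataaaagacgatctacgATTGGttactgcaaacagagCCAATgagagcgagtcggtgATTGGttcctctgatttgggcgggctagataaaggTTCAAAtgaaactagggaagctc
Cenpf: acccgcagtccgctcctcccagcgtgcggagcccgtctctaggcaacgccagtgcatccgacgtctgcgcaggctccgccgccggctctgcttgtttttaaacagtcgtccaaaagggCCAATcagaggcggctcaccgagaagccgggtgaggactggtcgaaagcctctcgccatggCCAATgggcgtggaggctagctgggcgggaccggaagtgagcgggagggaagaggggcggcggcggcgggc
Cdk1: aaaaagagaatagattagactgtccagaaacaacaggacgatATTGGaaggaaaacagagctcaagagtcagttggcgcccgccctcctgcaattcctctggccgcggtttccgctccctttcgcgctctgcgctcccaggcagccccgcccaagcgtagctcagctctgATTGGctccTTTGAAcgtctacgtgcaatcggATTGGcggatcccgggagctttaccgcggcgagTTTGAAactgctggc
Prc1: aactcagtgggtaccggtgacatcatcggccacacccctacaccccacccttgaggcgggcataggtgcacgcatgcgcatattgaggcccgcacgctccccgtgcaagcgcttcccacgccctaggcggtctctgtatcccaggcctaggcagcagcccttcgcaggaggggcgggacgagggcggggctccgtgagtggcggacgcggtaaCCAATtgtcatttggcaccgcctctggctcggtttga
Top2a and Cdk1 held both motifs, Top2a with CCAAT 6 and TTTGAA 2 times and Cdk1 with 3 and 2, while Cenpf and the printed window of Prc1 held CCAAT alone, 2 times and 1 time. RefSeq gives Prc1 a later start as well, whose window holds TTTGAA too. In the shares that follow, a gene counts where the 250 bases before any of its starts hold the motif. The letters of the motifs do not overlap one another. Of the 38 mitosis genes 32 had a promoter entry, and CCAAT lay in 25 of them (78.1%) against 37.5% of all 27025 genes with an entry and 40.8% of those tested. TTTGAA lay in 13 (40.6%) against 18.3% and 12.2%, and both together in 12 (37.5%) against 6.45% and 4.9%. Among the 11 called members with an entry CCAAT lay in 9, and among the 21 not called in 16, so that most members of both kinds held it. Of the other genes that fell 43 had an entry and 16 (37.2%) held CCAAT, and of the genes that rose 14 of 53 (26.4%). A match is only a description of these letters.

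Of 32 DNA replication genes 24 were tested and 0 passed at an adjusted p under 0.05 in edgeR. Against 2.31% of all genes, 0 calls in a list of this size says little. At an unadjusted p under 0.05 edgeR had 11, all lower, and DESeq2 called 4. The median log2 change of the 24 was -4.08, or -2.08 at the bounds, and 21 of them were below 0. The helicase subunit genes Mcm2, Mcm3 and Mcm5 had 0 hypertrophic counts, while Pcna, the sliding clamp, was at 1.99. Among 11 G1 regulators tested, Cdkn1c was the 1 that rose and 0 fell. The cyclin Ccnd2 (-3.92) and the inhibitor Cdkn1a (2.94) did not pass.

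Calls in the secretion and metabolism lists stand beside 2.31% called over all genes tested. In the secretory and collagen folding list 49 of 52 genes were tested, 0 rose and 3 fell, with a median of -0.60. P4ha3, a prolyl hydroxylase subunit, had 34.2, 169, 439 and 6.78 CPM and 0 hypertrophic counts, at least 316-fold lower (adjusted p = 0.0011, and up to 0.458 without animal D or G). Plod2, the lysyl hydroxylase of collagen telopeptides, had 294, 1003, 1110.1 and 1234 CPM and 75.9, 44.3, 233 and 0 CPM, without overlap, and changed by -2.74 ± 0.73 (adjusted p = 0.0143, and up to 0.41 without animal A, D or G). Fkbp14, a folding enzyme for procollagen, changed by -6.67 ± 1.70 (adjusted p = 0.00889, and up to 0.295 without animal A, D or G). Of 20 ion, water and phosphate transporters tested Slc37a2, a sugar phosphate exchanger, rose: it had 0 proliferative counts and 9.49, 91.2, 217 and 0 CPM in hypertrophic libraries, at least 277-fold higher (adjusted p = 0.00511, and up to 0.476 without animal D or G). Slc38a2, a carrier of small neutral amino acids, rose by 2.67 ± 0.72 (adjusted p = 0.0161, and up to 0.445 without animal A, D or G) and was the 1 call among 18 genes of amino acid response and serine synthesis. Glycolysis and hypoxia (27 tested, median -0.89), cholesterol synthesis (22, 0.25), oxidative phosphorylation (65, 0.28), cytosolic ribosomal proteins (48, -0.78) and immediate early and heat shock genes (14, 0.72) had 0 calls each in edgeR, against 2.31% of all genes. At that share lists of this size would hold few calls or none, so 0 calls says little. At an unadjusted p under 0.05 edgeR had 3 in glycolysis and hypoxia, 1 in the heat shock list and 0 in the other 3, and DESeq2 called 1, in glycolysis and hypoxia.

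Several of the clearest differences lay outside the lists. Slc13a5, a sodium-coupled citrate carrier, had 6.84, 16.6, 32.9 and 20.3 CPM in proliferative and 996, 1020.0, 1622 and 173 CPM in hypertrophic libraries, without overlap, and rose by 5.88 ± 0.91 (adjusted p = 8.17e-08). Atp1b3, a subunit of the sodium pump, had 47.9, 118, 94.9 and 27.1 CPM against 1053, 1719.6, 1512 and 245 CPM and rose by 4.09 ± 0.80. Wnk4, a kinase that governs ion transporters, had 47.9, 11.4, 3.69 and 0 CPM against 522, 1017, 1022 and 332 CPM and rose by 5.80 ± 1.03. Ccdc80, a secreted matrix-binding protein, rose by 4.14 ± 0.74, Eps8l2, an actin regulator, by 7.03 ± 1.21, Tspan13, a tetraspanin, by 7.51 ± 1.30, and Ddit4l, a stress-induced inhibitor of mTOR signalling, by 7.97 ± 1.5. These 7 genes passed in all 9 fits with 1 animal left out, and Cds1, an enzyme of phospholipid synthesis at 8.39 ± 1.47, in 8, with an adjusted p of 0.0554 without animal G. Tspan13 had 0 counts in the hypertrophic library of animal C.

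On the falling side, C1qtnf3, a secreted protein of dividing chondrocytes, had 397, 1792, 1911 and 841 CPM and 94.9, 88.7, 165 and 14.4 CPM, without overlap, and changed by -3.25 ± 0.70 (adjusted p = 6.70e-04, and up to 0.232 without animal D or G). Angptl2, a secreted angiopoietin-like protein, and Smoc1, a matricellular protein that modulates BMP signals, had 0 hypertrophic counts. Angptl2 was at least 63.2-fold and Smoc1 at least 102-fold lower. Their adjusted p was 4.12e-05 and 0.00306, and up to 0.0611 without animal D or G for Angptl2 and up to 0.362 without animal D or G for Smoc1. Clec11a, a secreted growth factor of skeletal cells, changed by -5.70 ± 1.37 (adjusted p = 0.00436, and up to 0.234 without animal D or G), and Unc5c, a netrin receptor, by -5.59 ± 1.33 (adjusted p = 0.00351, and up to 0.55 without animal D or G). The transcripts 1500015O10Rik and 1190002N15Rik changed by -5.98 ± 1.17 and -8.23 ± 1.77, with an adjusted p of 8.74e-05 and 6.57e-04, and 0.106 without animal D for the first and up to 0.134 without animal D or G for the other. The snoRNA host gene Snhg5 had 1 hypertrophic count and a pooled ratio of 0.00124 (3.15e-05 to 0.00694) (adjusted p = 1.17e-04, and 0.194 without animal G).

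Markers of other cells were followed because bone and marrow lie next to the hypertrophic zone. Of 19 osteoblast and osteocyte markers 10 were tested, 5 rose (Alpl, Ibsp, Phex, Col5a2 and Cgref1) and 0 fell. Their summed level was 244 to 406 CPM in proliferative and 2134 to 4222 CPM in hypertrophic libraries. The lists overlap: Alpl, Ibsp and Spp1 are hypertrophic markers here too, and Alpl, Ibsp and Phex are on the mineralisation list. Some members were lower in the hypertrophic zone in summed counts, proliferative first: Col1a2 had 1198 and 157, Omd 42 and 9 and Sp7 11 and 5. The osteoblast genes Bglap and Bglap2 and the osteocyte genes Mepe and Sost were at 0 in all 8 libraries. Col1a1, the collagen of bone, was at 85.4, 0, 15.3 and 793 CPM in hypertrophic libraries, highest in animal C. Col5a2, a fibrillar collagen chain, had 0, 21.8, 5.22 and 6.78 CPM against 304, 254, 685 and 57.7 CPM and rose by 6.11 ± 1.24 (adjusted p = 2.05e-04, and 0.169 without animal G). Cgref1, a secreted calcium-binding protein, rose by 4.34 ± 1.18 (adjusted p = 0.0179, and up to 0.662 without animal A, D or G). Beta-s, a haemoglobin chain of red blood cells, had 0, 1.04, 16.9 and 0 CPM against 275, 12.3, 163 and 707 CPM and rose by 4.47 ± 1.29 (adjusted p = 0.0308, and up to 0.317 without animal A, C, D, G or P28 animal B). In summed counts Slc4a1 went with it, at 0 and 18, while Tfrc, at 73 and 17, and Alas2, at 22 and 3, were lower in the hypertrophic zone. Osteoclast markers summed to 0 to 78.9 CPM in proliferative and 41.9 to 72.1 CPM in hypertrophic libraries. In summed counts, proliferative first, Nfatc1 had 277 and 144, Ctsk 48 and 1 and Acp5 1 and 0. Tnfrsf11a, at 0 and 5, and Itgb3, at 0 and 4, ran the other way. Endothelial markers summed to 2.76 to 325 CPM in proliferative and 14.4 to 73.1 CPM in hypertrophic libraries, with Pecam1 and Cdh5 at 0 in all hypertrophic ones. Other endothelial genes ran the other way in summed counts, proliferative first: Eng had 1 and 50, Vwf 13 and 73 and Ramp2 0 and 35, and Eng, the 1 tested, did not pass (adjusted p = 0.268). Lsp1, an actin-binding protein of white blood cells, fell, with 109, 131, 303 and 298 CPM against 0, 0, 0 and 173 CPM (adjusted p = 2.83e-07). Its hypertrophic counts were 0 in A, D and G, so the size of the fitted change, -10.49 ± 1.69, depends on the prior count of the fit. In summed counts, proliferative first, Ptprc, the pan-leukocyte marker, had 11 and 0, Lcp1 90 and 20 and S100a9 17 and 4. Cd68, at 0 and 34, S100a8, at 0 and 55, and Laptm5, at 4 and 6, ran the other way. The part of bone or blood cells in the zone difference was not tested.

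RNA species that report on library quality moved with the zone. Rn45s, the ribosomal precursor, rose by 1.94 ± 0.28 and Lars2, whose mouse gene model includes ribosomal sequence, by 2.70 ± 0.35, and both groups overlapped in level. The nuclear RNAs Malat1 and Neat1 rose by 1.77 ± 0.42 (adjusted p = 0.00348, and up to 0.384 without animal A or D) and 3.21 ± 0.68 (adjusted p = 4.57e-04, and up to 0.0938 without animal A or D), with 178, 142, 305 and 332 CPM against 2704, 1394, 1740.4 and 2739.8 CPM for Neat1. Their part in the other differences was not tested. In each of A, D and G the hypertrophic library had the lower share of counts outside Rn45s, Lars2 and Glra2. Library quality and zone therefore cannot be told apart here. A fit with these symbols left out of the counts kept the same libraries and gave 84 rising and 81 falling genes, 158 of them among the 161.

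A P3 animal, captured in the same way and kept out of the fit, gave 1 library per zone with 1616685 proliferative and 1657287 hypertrophic counts outside the ribosomal symbols and Glra2. Its label differs from that of P2 animal G by 1 digit and a side, and it was taken as another animal. Of the 79 rising genes 76 were higher in its hypertrophic library, against 46.2% of all genes, and of the 82 falling genes 79 were lower, against 51.6%. The exceptions were Rn45s, Lars2 and Slc37a2 on one side and Meg3, Mss51 and Fkbp14 on the other. In this animal Col10a1 went from 153 to 29238 CPM, Ihh from 1.78 to 547 CPM, Aldh1a3 from 1.19 to 763 CPM and Alpl from 18.7 to 1269.9 CPM, proliferative value first. Among the falling genes Mki67 went from 305 to 0.799 CPM, Top2a from 246 to 0.399 CPM, Tgfbi from 681 to 10.8 CPM and Ucma from 229 to 1.2 CPM. Of the 33 mitosis genes tested 32 were lower in its hypertrophic library. Rn45s went from 297448 to 241230.0 CPM in this animal, lower in the hypertrophic library, the reverse of the P2 animals. With 1 animal these values have no replicate check.

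**Figure D4:**
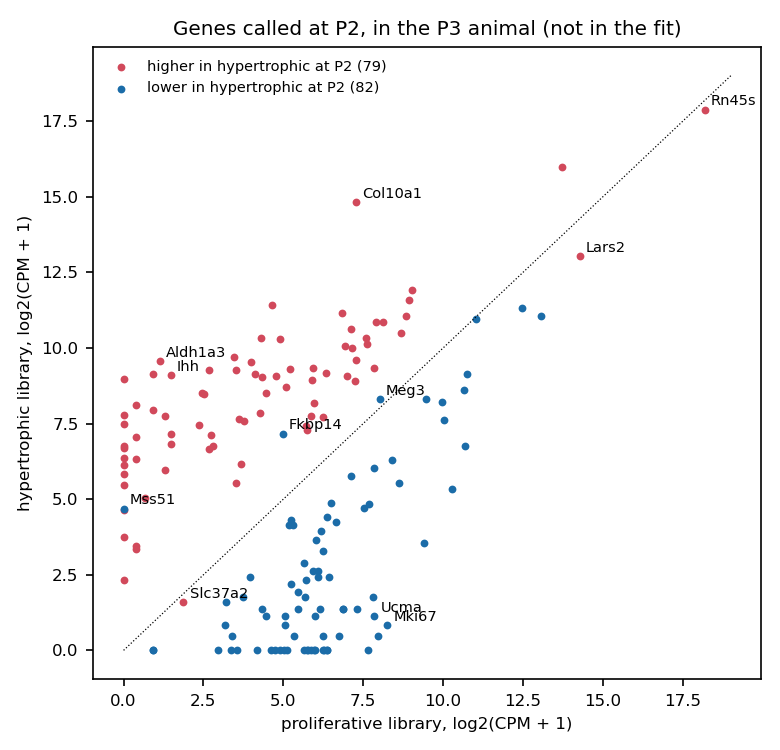
Levels of the 161 called genes in the P3 animal, which was not in the fit: log2 of CPM plus 1 in the hypertrophic library (vertical) against the proliferative library (horizontal). Red points rose and blue points fell at P2, and the dotted line marks equal levels. All but 3 red points lie above it and all but 3 blue points below it, with Rn45s and Lars2 among the red exceptions.

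The P2 libraries under the count minimum gave a further view that the test had not used. They came from animals B, C, E and F and held 460 to 22036 counts outside the ribosomal symbols and Glra2 per animal and zone, with 2 proliferative libraries of animal C summed. The 73 rising genes other than Col10a1, the nuclear and ribosomal RNAs and Mir5109 made up 2.76% (2.28 to 3.31), 3.02% (2.67 to 3.41), 5.45% (4.93 to 6.01) and 3.55% (2.27 to 5.29) of those counts in the hypertrophic libraries of B, C, E and F. In the proliferative libraries of B, C and F they made up 0.489% (0.260 to 0.834), 0.93% (0.808 to 1.07) and 0.87% (0.237 to 2.21), with exact binomial 95% intervals that cover counting error only. All 4 hypertrophic shares lay above all 3 proliferative ones. Col10a1 had 39, 128, 32 and 21 counts in the hypertrophic and 0, 3 and 0 in the proliferative libraries. The 82 falling genes did not separate in the same way: their share was 0.783%, 0.469%, 0.954% and 2.94% in hypertrophic and 0.564%, 1.36% and 5.65% in proliferative libraries, lower in the hypertrophic zone in C and F and higher in B. Hypertrophic first, the intervals overlapped in B (0.536 to 1.10 and 0.316 to 0.928) and F (1.78 to 4.55 and 3.73 to 8.17). They did not overlap in C (0.335 to 0.638 and 1.21 to 1.52).

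The zones were also captured at P28, and the P2 and P28 effects share the fit but no sample. At P28 38 genes rose (0.546%) and 40 fell (0.575%). Of the 79 genes that rose at P2 28 rose at P28 as well and 75 had a log2 change above 0 there, against 39.6% of all genes. Of the 82 that fell at P2 15 fell at P28 and 75 were below 0, against 60.4%. None was called in the other direction. Called at both ages were Alpl, Ibsp, Phex, Loxl4, Aldh1a3, Frzb, Fgfr1, Fn1, Irx5, Sox4 and Bmp8a among those that rose and Ucma, Prelp, Fmod, Tgfbi, H19, Mki67, Chst11 and Scrg1 among those that fell. Ihh was at 2.15 ± 1.24 at P28 and Col10a1 at 6.57 ± 2.07, neither past the threshold there (adjusted p = 0.498 and 0.272).

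Whether the zone difference itself changed with age was tested as an interaction. No gene of 6958 passed in edgeR, with 413 at an unadjusted p under 0.05, while DESeq2 called 74. The smallest adjusted p among the genes called at P2 was 0.101 for Aldh1a3, whose P28 change was 6.63 ± 0.95. Alpl was at 6.89 ± 0.90 at P2 and 2.94 ± 0.76 at P28 and Pth1r at 3.85 ± 0.60 and 0.88 ± 0.55, each with an adjusted interaction p of 0.187. Sgms2, at 4.25 ± 1.01 at P2 and -0.68 ± 0.77 at P28, had 0.183. A call at 1 age only is thus not shown to differ between the ages by edgeR.

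**Figure D5:**
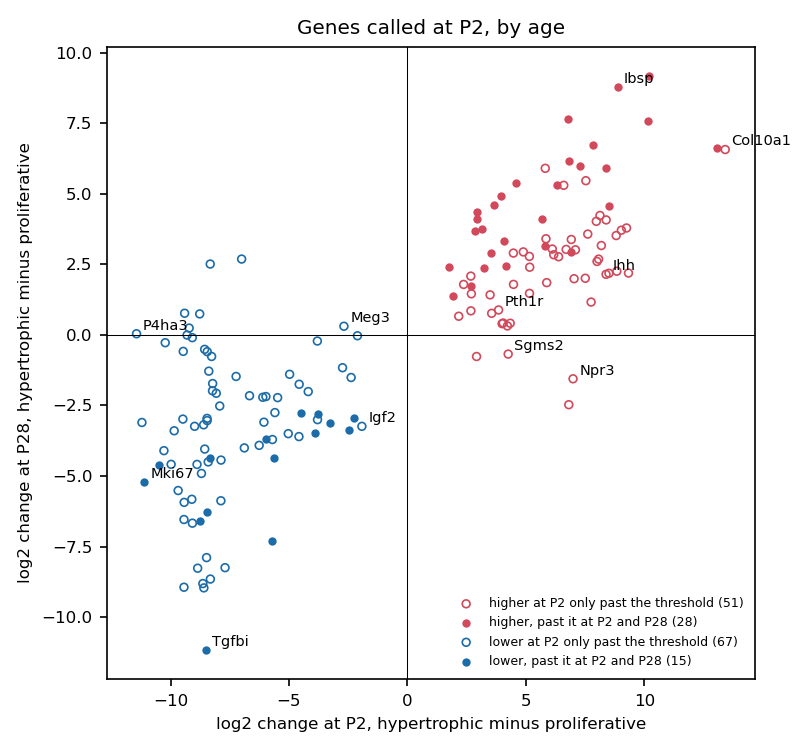
Log2 change between the zones, hypertrophic minus proliferative, at P28 (vertical) against P2 (horizontal) for the 161 genes called at P2. Filled points passed at both ages (28 red, 15 blue) and open points at P2 only, with red for genes that rose and blue for genes that fell at P2. Changes of genes at 0 counts in 1 zone, or in 1 zone of A, D and G, depend on the prior count of the fit. Most points lie in the upper right and lower left quadrants, and none of the filled ones elsewhere.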

How the data were processed

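The authors deposited 1 table of raw read counts per gene symbol. The tools, per the submitters' processing notes, were featureCounts 1.5.3, Subread, STAR 2.5.2b and cutadapt, with mm10, and the counting of reads from repeated genes is not stated there. Reads of overlapping or antisense genes cannot be told apart, since the library method keeps no strand. All 100 count columns matched a label (0 unmatched), and the 2 columns of each of 32 titles were summed.

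Groups came from the labels, which also name the animal. Ethanol-fixed P2 and P28 libraries of at least 100000 counts were summed by animal and zone, 21 sums in all, and fitted with edgeR 4.0.16 in R 4.3.3: TMM, filterByExpr by age and zone, robust quasi-likelihood F-test, animal as block, zone within age, 8 residual degrees of freedom, Benjamini-Hochberg over all genes tested. The standard error was the log2 change divided by the root of F. Both zones of an animal share that animal per the labels, so the numbers pair them; correlations of deviations between zones of 1 animal ran from -0.00358 to 0.187. P-values rest on how zone differences vary between animals once each animal's own level is taken out. That variation is pooled over all zones at P2 and P28 and moderated across genes, so it is not that of the P2 animals alone. Pooled ratios add counts and effective library sizes over the 4 libraries of a zone. The fits were checked on simulated counts.

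Named genes were the 20 called genes of smallest p in each direction with the same sign in all 3 pairs, every called member of 37 lists, and 13 fixed genes. The members and lists were chosen with earlier results of these data known. Alternatives covered scaling (RLE), filters, DESeq2 1.42.0, the block, the samples in the fit, library minima, thinning and each animal left out, and 3 were added after the data were seen. Sequences and coordinates came from RefSeq tables for GRCm38.p6. Xylene-fixed libraries were not used.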

Additional observations from a re-analysis of the deposited data

Results flagged for a closer look

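In 15 of 152 groups of 4 levels on the log2(CPM + 1) scale, 1 library stood apart from the other 3 by most of the range. Chance alone marks about 1 in 20 groups. The hypertrophic library of animal C stood low in 8 of them: 72.1 CPM for Alpl, 144.2 CPM for Frzb, 28.8 CPM for Timp3, 28.8 CPM for Itga7, and 0 for Tspan13, Tgfb3, Adamts1 and Mmp2. That library had 7.92% of its counts outside the ribosomal symbols and Glra2, 3372 detected genes and 14.4 CPM for a single count. Animal C gave no proliferative library to the fit, so that this library does not enter the change within animals.

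The proliferative library of animal A stood apart for Slc38a2 (47.9 CPM, low), Plod2 (294.1 CPM, low) and Bmp2 (20.5 CPM, high). That of animal E stood low for Cenpf and Prc1, both at 0. That of animal D stood apart for Cds1, at 8.30 CPM with the other 3 lower. The hypertrophic library of animal A stood low for Meg3, at 9.49 CPM.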

How the results depend on the processing

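Counts are genes higher and lower in the hypertrophic zone, 79 and 82, and genes whose difference changed with age, 0. With the library depth as it was, genes at a few CPM could not be compared in animals A, C and E. Without the filter on low counts 43 and 46 of 17434 genes passed. DESeq2 called 131 and 238, and 74 with age, and 141 of its calls were among the 161. With P2 libraries alone 234 fell. A minimum of 100000 counts outside the ribosomal symbols gave 10 genes with age, and labels with a trailing number counted as separate animals gave 5. Thinned to 20032 counts each, 499 genes were tested and 49 rose and 41 fell. Leaving out 1 animal at a time gave 18 to 124 higher, 9 to 185 lower and 0 to 10 with age. The cause of these shifts was not tested, but fits without A, D or G have 2 animals with both zones. With the P3 animal added, an alternative chosen after the data were seen, 136 rose, 195 fell and 2 changed with age.

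Without the replicate block, so with the pairing by animal ignored, 84 rose and 121 fell, 133 of them among the 161, and 1 of the 161 had the other sign. RLE scaling gave 62 and 78. Other settings kept the counts within 1.5 times of those reported, and no named gene passed with the other sign in any setting.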

Other observations

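The resting zone of P2, with 4 libraries, was not part of the comparison, and its levels are given without a test for genes chosen after their values were seen. The share of all genes tested with such an order was not counted, so the counts here and below describe single genes only. Of the 79 genes that rose from the proliferative to the hypertrophic zone, 5 had their lowest resting level above their highest proliferative one. Frzb ran from 66.9 to 629 CPM in resting libraries, against at most 18.7 CPM in proliferative ones. Fgfr1 ran from 128 to 414 CPM against at most 27 CPM. Sox4, Abca1 and Sort1 showed the same order at lower levels.

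Of the 82 genes that fell, 5 had every resting level above every proliferative one, so that the resting zone was the highest of the 3. Ucma ran from 719 to 1797 CPM in resting libraries and Meg3 from 3010.4 to 7619 CPM, and 1190002N15Rik, Fstl1 and Slc50a1 had the same order. Another 4 were highest in the proliferative zone, with every resting level below every proliferative one. Prelp ran from 80.4 to 337 CPM in resting libraries against at least 875 CPM in proliferative ones, Lsp1 from 0 to 21.9 CPM, Runx3 from 0 to 54.7 CPM and Col15a1 from 5.9 to 35.5 CPM.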
